A study of Mus musculus with 12 samples.

Results

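Lif, Lifr, Il6st, Jak1, Stat3, Socs3 and Pim1, which encode a ligand, its receptor, the kinase and transcription factor behind it and some of its targets, were taken by gene symbol from both RNA-seq tables. They are 7 of 21951 protein-coding genes, with 47 of the 137767 transcripts listed. Peaks were counted at each gene when they overlapped its body or the 5 kb on either side by at least 1 bp. The series compares mESCs of the E14 line, pluripotent cells from the early mouse embryo, with NIH3T3 cells, an established line of mouse embryonic fibroblasts, and asks where Ctr9, a subunit of the elongation factor complex Paf1C, sits on chromatin in each. For Ctr9, GFP was knocked into the gene in both cell types, and a pool of sorted GFP-positive cells was used instead of 1 clone. NELFA, a subunit of the pausing factor NELF, carried a GFP tag in mESCs, and both tagged proteins were pulled down with an anti-GFP antibody. H3K27ac, a histone mark of active promoters and enhancers, was measured in both cell types, and RNA polymerase II phosphorylated on serine 5 or serine 2 (RNAPII Ser5p and Ser2p, the forms of early and of elongating polymerase) in mESCs only, for Ser5p in the cells with tagged NELFA. LIF was in the medium of every culture at 1000 U/ml, including that of the NIH3T3 cells, so no sample is without added LIF. Each cell type and antibody had 1 library, so no difference has a replicate check and none was tested.

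LIF binds a receptor made of Lifr and Il6st (gp130), and Jak1, bound to the receptor, then phosphorylates Stat3, which enters the nucleus and binds DNA. The pathway is best known in mESCs, where LIF keeps the cells self-renewing. Socs3 is a target of Stat3 that shuts the receptor down again, and Pim1, a serine/threonine kinase that promotes survival, is another target. Il6st is shared with other cytokines such as IL-6, which use other partner receptors.

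The labels were checked against markers. All 5 mESC markers (Pou5f1, Sox2, Nanog, Zfp42 and Esrrb) had a TPM of at least 10 in mESCs and of at most 0.511 in NIH3T3 cells, whereas all 5 fibroblast markers (Col1a1, Col1a2, Col5a1, Thy1 and Pdgfrb) lay between 39.6 and 1082 in NIH3T3 cells and at 5.69 or less in mESCs. The 6 markers of other cells reached at most 2.21 and 2.85. The libraries held 26400407 (mESCs) and 28849497 (NIH3T3 cells) estimated counts. TPM gives the level of a transcript after scaling for its length and for the size of the library. The highest transcript stood for each gene, and a difference was called at 2-fold on the log2(TPM + 1) scale, which understates the change of low genes.

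The ligand and the signal-transducing receptor chain and kinase were higher in NIH3T3 cells, while Lifr and the target Pim1 were higher in mESCs. Of the 7 genes, 2 were called higher in mESCs and 3 lower, and Stat3 and Socs3 differed by less than 2-fold. Among the 12392 protein-coding genes with a TPM of at least 1 in either library, 23.8% were called higher in mESCs and 20% lower, so calls in both directions were common. The median log2 difference of the 7 genes (mESCs minus NIH3T3 cells) was −0.35, against 0.13 over all genes.

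**Figure D1:**
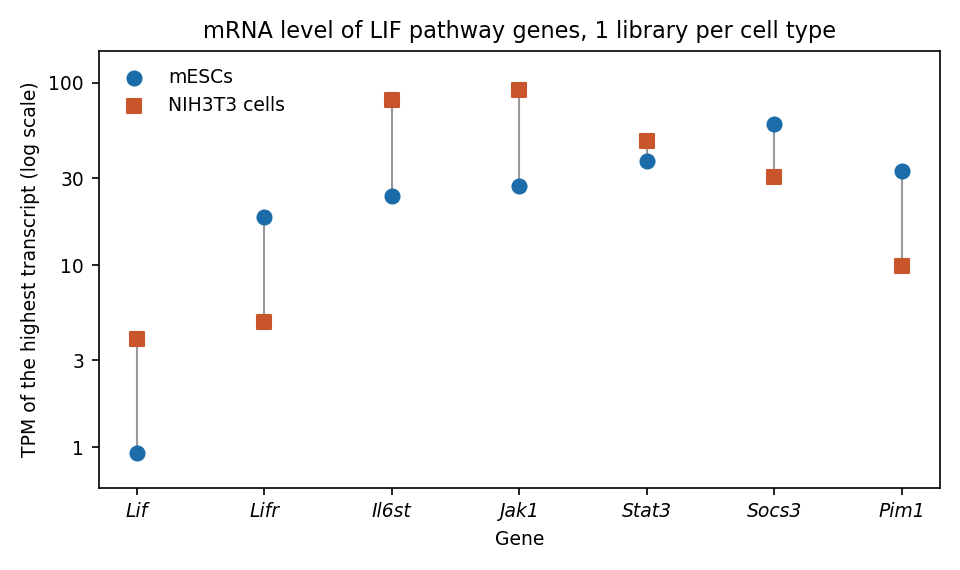
TPM of the highest transcript of each gene (log axis) in mESCs (circles) and NIH3T3 cells (squares), with 1 library each and a line joining both values. Lifr, Socs3 and Pim1 sit higher in mESCs and Lif, Il6st, Jak1 and Stat3 higher in NIH3T3 cells, with the smallest gap at Stat3.

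Lif, the cytokine itself (ENSMUSG00000034394, chr11:4257557-4272514, plus strand), had a TPM of 0.928 in mESCs and of 3.95 in NIH3T3 cells. The NIH3T3 level was 4.26-fold that of mESCs (95% counting interval, 3.37 to 5.44), from 394 and 86 estimated counts of the transcript Lif-202. Intervals given here cover counting error only. Lif was the lowest of the 7 genes in both libraries.

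Lifr, the chain that binds LIF (ENSMUSG00000054263, chr15:7090614-7197489, plus strand), had a TPM of 18.4 in mESCs and of 4.90 in NIH3T3 cells, a 3.76-fold higher level in mESCs (3.50 to 4.03). The transcript Lifr-203 took 89.7% of the counts of the gene in mESCs and 90.4% in NIH3T3 cells, so the same isoform led in both. Il6st, the chain that passes the signal on (ENSMUSG00000021756, chr13:112464070-112510086, plus strand), went the other way, with a TPM of 24.0 in mESCs and of 80.2 in NIH3T3 cells. This 3.35-fold difference (2.49 to 4.55) belongs to Il6st-205, a fragment of 322 bps with 58 and 213 counts. The transcripts with most of the counts were Il6st-201, at 18.7 and 65.2, and Il6st-203, at 7.85 and 62.9. For Il6st-203 the NIH3T3 level was 8.02-fold that of mESCs (7.59 to 8.48), so the direction was the same and the size depended on the isoform. The isoform balance also shifted. Il6st-203, which begins at the first annotated start, took 39.5% of the counts of the gene in mESCs and 60.8% in NIH3T3 cells. Il6st-201, which begins 10.9 kb inside the gene, took 54.9% and 36.8%. Both cell types had an H3K27ac peak at the first start, and no H3K27ac or NELFA peak lay near that of Il6st-201. Whether the use of starts differed was not tested.

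Jak1, the receptor-bound kinase (ENSMUSG00000028530, chr4:101152367-101265282, minus strand), had a TPM of 27.2 in mESCs and of 90.98 in NIH3T3 cells, 3.34-fold higher in NIH3T3 cells (3.19 to 3.50). Stat3, the transcription factor (ENSMUSG00000004040, chr11:100885098-100939540, minus strand), had a TPM of 37.4 and of 48.0, a ratio of 1.28 (1.23 to 1.34) in favour of NIH3T3 cells. Stat3 was thus the gene whose level was closest in both cell types. Its main transcript Stat3-203 held 84.2% of the counts of the gene in mESCs and 84.1% in NIH3T3 cells.

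Socs3, the feedback inhibitor (ENSMUSG00000053113, chr11:117966079-117970047, minus strand), had a TPM of 59.2 in mESCs and of 30.5 in NIH3T3 cells. It was 1.94-fold higher in mESCs (1.83 to 2.05), just under the 2-fold call, and its log2 difference moved from 0.93 to 1.05, over the call, when the TPM of all its transcripts was summed. Pim1 (ENSMUSG00000024014, chr17:29490753-29496112, plus strand) had a TPM of 32.8 and of 9.88, and was 3.32-fold higher in mESCs (3.03 to 3.64).

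In order of level, mESCs had Socs3, Stat3, Pim1, Jak1, Il6st, Lifr and Lif, and NIH3T3 cells had Jak1, Il6st, Stat3, Socs3, Pim1, Lifr and Lif. The counting intervals of neighbours in this order overlapped for Jak1, Il6st and Lifr in mESCs and for Jak1 and Il6st in NIH3T3 cells, where Il6st rested on its short transcript. By the highest transcript, the inhibitor Socs3 was the highest of the 7 genes in mESCs and stood 4th in NIH3T3 cells, while Jak1 moved from 4th to 1st. The place of Jak1 depended on this choice. With the TPM of all transcripts summed, Il6st was the highest in NIH3T3 cells (212.6, against 136.8 for Jak1). In mESCs the summed Il6st (53.1) stood above Jak1 (38.5) and Pim1 (32.8), and Socs3 stayed the highest (90.3).

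The genes with TPM of at least 10 made up most of this set (6 of 7 in mESCs and 4 of 7 in NIH3T3 cells), and highly expressed genes usually carry peaks. Ctr9 peaks overlapped 6 of the 7 genes in mESCs, where 45.6% of all protein-coding genes and 87.8% of those with a TPM of at least 10 had one. In NIH3T3 cells 5 of 7 had a Ctr9 peak, against 26.9% and 57.9%. H3K27ac peaks overlapped 6 of 7 genes in mESCs (44.6% of all genes, 87.3% of those with a TPM of at least 10) and 7 of 7 in NIH3T3 cells (56% and 97.3%). Within mESCs, NELFA had peaks at 3 genes (10.9% and 25.6%), RNAPII Ser5p at 2 (13.4% and 31.4%) and RNAPII Ser2p at 1 (7.54% and 17.2%). The counts thus lie near those of other genes of like expression, and long genes have more room for peaks. The median length of the 7 genes was 46.0 kb against 17.4 kb over all genes. Where the peaks lay and how strong they were is therefore given gene by gene.

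**Figure D2:**
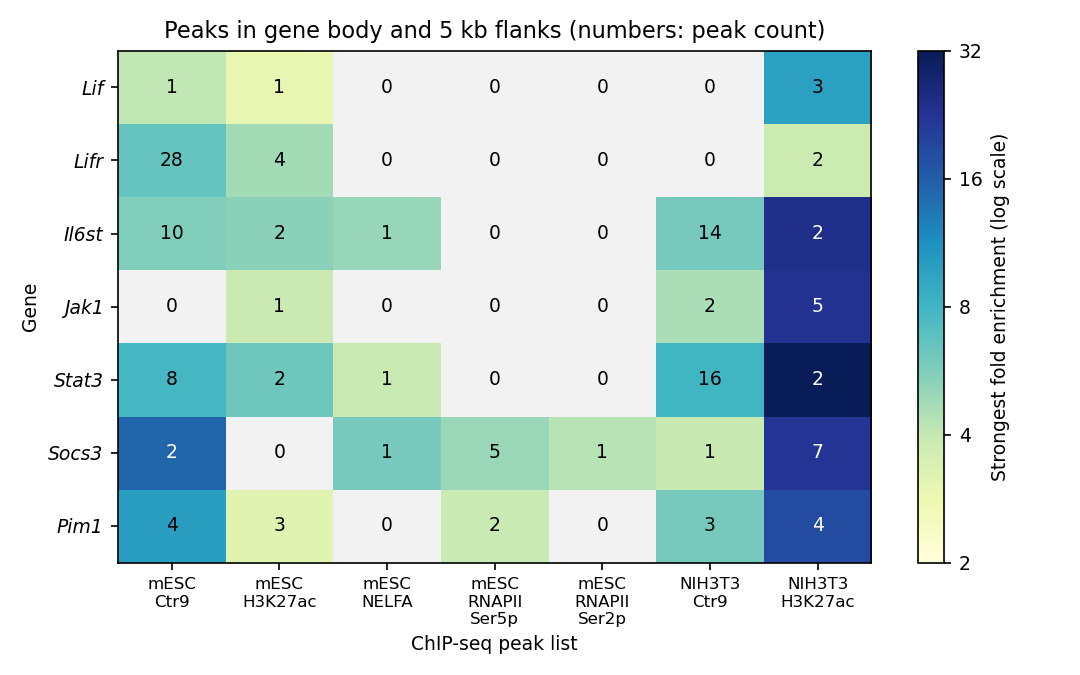
Strongest fold enrichment of any peak at each gene (colour, log scale) in each of the 7 peak lists, with the number of peaks printed in each cell and grey where there was none. Lifr has 28 Ctr9 peaks in mESCs against 0 in NIH3T3 cells, and Socs3 is the gene with peaks in every list other than mESC H3K27ac. Peak numbers are not scaled for gene length.

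Fold enrichment is the fragment pileup at the summit of a peak over the local background. The lists differ in size and strength, with 44748 Ctr9 peaks in mESCs and 22016 in NIH3T3 cells (median fold enrichment 3.71 and 4.27), and 19417 and 34241 H3K27ac peaks (3.97 and 6.75). Higher H3K27ac values in NIH3T3 cells are therefore found across the whole list, and the part of this in the differences at single genes was not tested. For this reason the rank of a peak within its own list is given beside its fold enrichment. Distances are from the most upstream RefSeq start of each gene in the direction of transcription, a reference chosen after the values were seen, since the first GENCODE starts of Lifr and Socs3 belong to minor transcripts. The RefSeq start of Lifr is not that of its main transcript either, since Lifr-203 is annotated from a start 24.8 kb farther downstream. The transcripts that begin at or near the RefSeq start, Lifr-201 and Lifr-202, took 5.88% and 1.08% of the counts of the gene in mESCs. Lifr-203 is also the longest (9655 bps, against 4143 for Lifr-201), so these shares do not show where transcription begins. Both cell types had an H3K27ac peak at the RefSeq start, and neither had one near the start of Lifr-203. A Ctr9 peak of mESCs (3.88) lay near the start of Lifr-203, with its summit 24.5 kb after the RefSeq start. Which start was used was not tested.

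At Socs3, mESCs had a Ctr9 domain over nearly the whole transcribed gene and past its end, and H3K27ac was listed only for NIH3T3 cells. The Ctr9 peak of mESCs was 5599 bps wide, with a fold enrichment of 14.997 at a summit 266 bps past the gene end, and it ranked in the top 0.923% of its list. NIH3T3 cells had 1 Ctr9 peak there, 220 bps wide, with a fold enrichment of 3.93 and the summit 416 bps after the start. No other of the 7 genes had so large a difference in strength between the Ctr9 lists where both held a peak.

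Polymerase and NELFA were found over the same stretch. In mESCs, 5 RNAPII Ser5p peaks ran from the start to past the end of Socs3, with the strongest (5.01) 3591 bps after the start and another of 4.92 at 217 bps. The single RNAPII Ser2p peak (4.31) had its summit at 3656 bps, and the single NELFA peak (5.94) at 215 bps, next to the Ser5p summit near the start. All 5 Ser5p peaks, the Ser2p peak and the NELFA peak overlapped the broad Ctr9 peak, as 77.1% of all Ser5p peaks, 99.8% of all Ser2p peaks and 43.1% of all NELFA peaks overlapped a Ctr9 peak of mESCs. Counted from the start of Socs3-201, the transcript with most of the counts, the NELFA summit lay at 35 bps and the first Ser5p summit at 37 bps.

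H3K27ac at Socs3 was the reverse. NIH3T3 cells had 7 peaks, of which the strongest reached 22.5, with a summit 356 bps after the start and in the top 7.13% of the list, and a 2421-bp peak past the gene end reached 15.4. In mESCs no H3K27ac peak fell in the window, although the TPM of Socs3 was higher there. The nearest one was weak (2.36) and lay 5.02 kb upstream of the gene body, just outside the window, with its summit 5.83 kb before the RefSeq start, close to the second Ctr9 peak of mESCs (3.36, at 5770 bps before the start).

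Stat3 binds sites of the form TTCNNNGAA, which reads the same on both strands, and the sequences below show where these letters occur at Socs3. In the 250 bases before RefSeq starts, 7.02% of all 32851 mouse promoters hold a match. Of the 9 promoters of the 7 genes, the one of Socs3 does, and its match begins 154 bases before the start, inside a minor transcript that starts farther upstream. The first line is this promoter (chr11:117969367-117969616, minus strand), the second a stretch of 29 bases after the RefSeq start (chr11:117969229-117969257, minus strand) inside the 300-base window of the NELFA and first Ser5p summits, and the third the 300 bases around the Ctr9 summit past the gene end (chr11:117965663-117965962, minus strand). All are from GRCm38.p6 (mm10), 5′ to 3′ along the gene, with each match in capitals.
Socs3 promoter: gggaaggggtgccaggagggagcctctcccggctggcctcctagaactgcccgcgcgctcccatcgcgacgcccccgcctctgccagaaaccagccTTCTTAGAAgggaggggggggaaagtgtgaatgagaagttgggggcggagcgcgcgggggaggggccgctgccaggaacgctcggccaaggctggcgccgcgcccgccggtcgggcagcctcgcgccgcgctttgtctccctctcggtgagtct
Socs3 near the NELFA summit: ggccgggcagTTCCAGGAAtcggggggcg
Socs3 Ctr9 summit: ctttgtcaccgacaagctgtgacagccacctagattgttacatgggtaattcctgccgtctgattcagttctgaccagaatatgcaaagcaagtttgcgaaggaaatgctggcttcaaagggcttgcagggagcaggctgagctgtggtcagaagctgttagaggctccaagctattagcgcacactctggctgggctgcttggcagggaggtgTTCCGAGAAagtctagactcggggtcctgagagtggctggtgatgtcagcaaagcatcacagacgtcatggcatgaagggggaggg

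The match in the second sequence begins 119 bases after the RefSeq start, which is 61 bases before the start of Socs3-201, and the match in the third begins 3618 bases after the RefSeq start. A match describes letters and not a site bound by Stat3, for which these lists hold no data. Windows of 300 bases at peak summits held a match in 7.96% of the Ctr9 peaks of mESCs, 6.47% of the NELFA peaks, 7.29% of the Ser5p peaks and 7.17% of the Ser2p peaks. At the 7 genes the counts were 4 of 53 Ctr9 windows, 1 of 3 NELFA windows, 2 of 7 Ser5p windows and 1 of 1 Ser2p windows, where the matches of NELFA, Ser5p and Ser2p are the same pair of Socs3 sites. In NIH3T3 cells the counts were 0 of 36 Ctr9 windows and 2 of 25 H3K27ac windows, against 8.13% and 8.14% in the whole lists.

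Pim1 carried its strongest Ctr9 peak past the gene end in mESCs and at its start in NIH3T3 cells. In mESCs the peak reached 9.96, in the top 2.53% of the list, with its summit 659 bps past the gene end, and both RNAPII Ser5p peaks of the gene (3.90 and 3.91) lay inside it. The other 3 Ctr9 peaks of mESCs were in the gene body, with fold enrichments of 3.53, 4.88 and 4.03. In NIH3T3 cells the strongest of 3 Ctr9 peaks (5.93) had its summit 632 bps before the start, and the peak past the end was weaker (3.75). H3K27ac flanked the start of Pim1 in both cell types, with a strongest peak of 3.18 in mESCs (top 75.4% of the list) and of 18.6 in NIH3T3 cells (top 11.4%). The gene with the higher TPM in mESCs thus had the lower-ranking H3K27ac peak there. Gm26885, a non-coding gene on the opposite strand that overlaps the start of Pim1, was listed at 0 TPM in mESCs and at 0.0529 in NIH3T3 cells.

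Lif had few peaks in any list. In mESCs a Ctr9 peak (4.13) and an H3K27ac peak (2.94) overlapped each other 13.8 and 13.6 kb after the start, near the end of the gene. NIH3T3 cells had no Ctr9 peak within 36.2 kb of the gene, and 3 H3K27ac peaks inside the gene, the strongest of 9.78 at 9334 bps after the start. No H3K27ac peak lay within 1 kb of the RefSeq start of Lif in either cell type. The strongest NIH3T3 peak covered the annotated starts of the minor transcripts Lif-203 and Lif-201, 9.24 and 9.54 kb inside the gene. These transcripts took 1.47% and 2.19% of the counts of Lif in NIH3T3 cells.

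**Figure D3:**
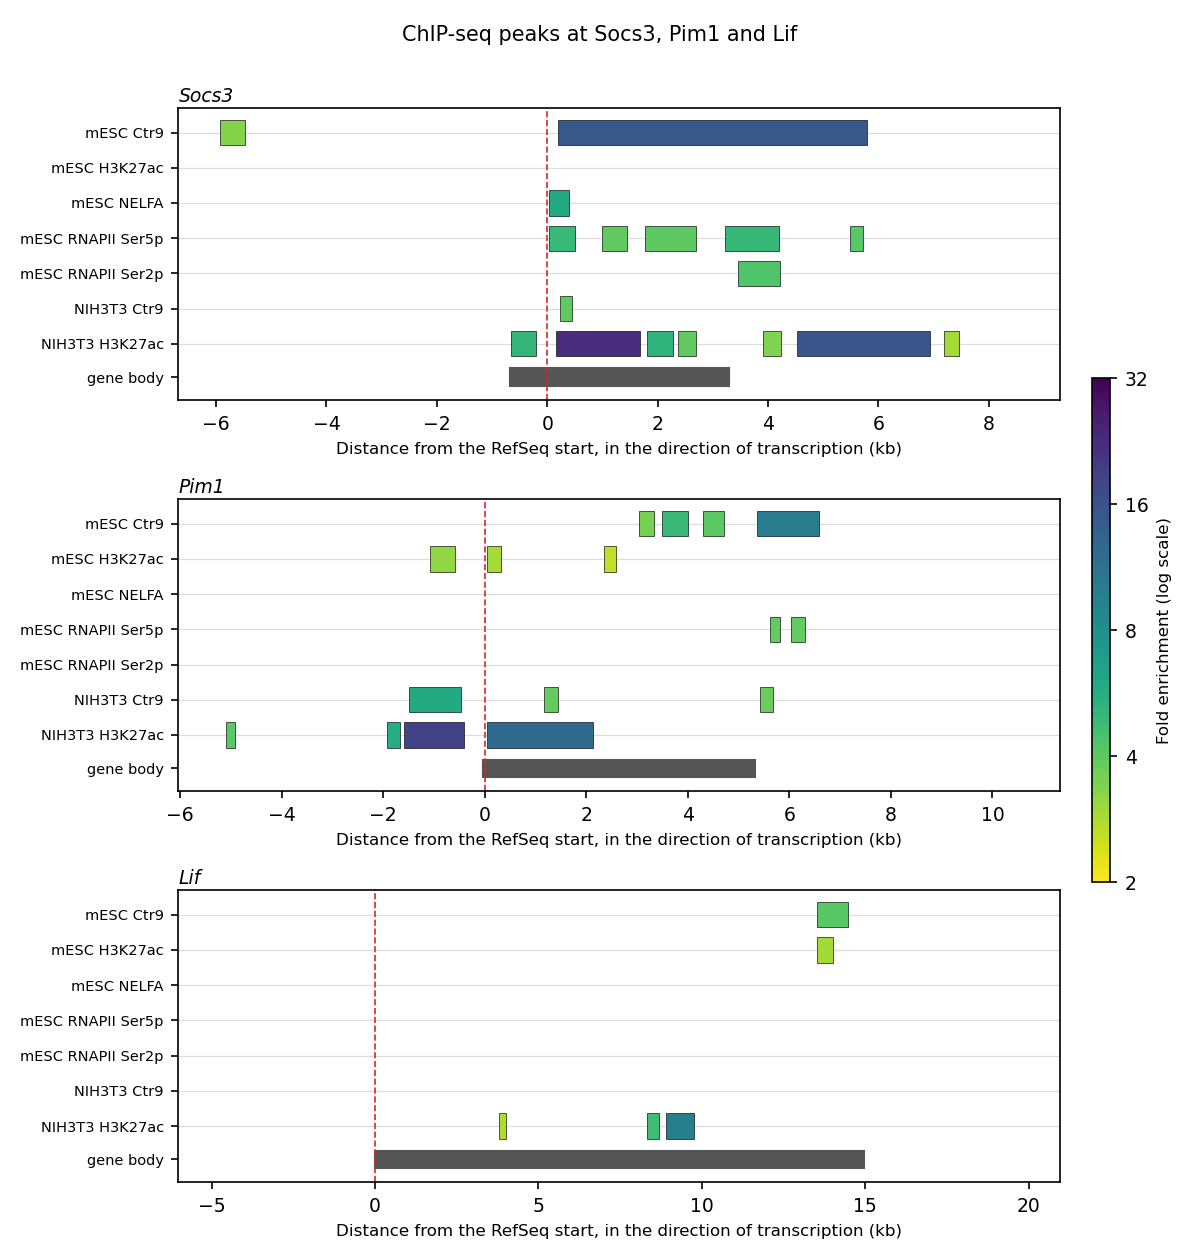
Peaks of the 7 lists at Socs3, Pim1 and Lif, drawn by distance from the RefSeq start (dashed line) in kb in the direction of transcription, with fold enrichment as colour on a log scale and the GENCODE gene body as a grey bar. The 5599-bp Ctr9 peak of mESCs runs from the start of Socs3 past its end over the 5 Ser5p peaks, where NIH3T3 cells have 1 short Ctr9 peak, and the strongest Ctr9 peak of Pim1 in mESCs lies past the gene end.

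Lifr had the largest contrast in Ctr9. In mESCs 28 Ctr9 peaks lay over the gene, 149th of the 10004 genes with a peak when ranked by number, and in NIH3T3 cells there was none, with the nearest Ctr9 peak 217 kb away. The mESC peaks were many and weak, from 2.29 to 6.46 in fold enrichment, and the strongest was one of 3 past the gene end. With the mESC list cut to its 22016 strongest peaks by q-value, the size of the NIH3T3 list, 11 of the 28 were left. The cut equalises the number of peaks and not ChIP-seq depth, which is unknown. Whether weak Ctr9 signal went uncalled in NIH3T3 cells was not tested. With a TPM of 4.90, Lifr was below the level of 10 above which 57.9% of the genes of NIH3T3 cells had a Ctr9 peak.

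H3K27ac peaks were found at the RefSeq start of Lifr in both cell types and did not overlap. The mESC peak (4.74, top 35.0% of its list) had its summit 322 bps before the start, and the NIH3T3 peak (3.82, top 90.1%) 106 bps after it. Mouse ESCs also had 3 H3K27ac peaks between 12.3 and 13.9 kb before this start (fold enrichments of 2.86, 3.69 and 2.52), within an intron of the minor transcript Lifr-208, and 2 Ctr9 peaks (3.69 and 2.88) overlapped this group. No peak of the NIH3T3 lists was found there. Lifr is the gene of the set with more H3K27ac peaks in mESCs (4 against 2) and a higher strongest one, although the median of its peaks was lower there (3.27 against 3.59).

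The first sequence below is the 250 bases before the RefSeq start of Lifr (chr15:7129322-7129571, plus strand), which lie between the H3K27ac summits of both cell types, are 82.4% G and C, and hold no match to TTCNNNGAA. The second is the 300-base window of the farthest upstream H3K27ac summit of mESCs (chr15:7115527-7115826, plus strand), which holds 2 matches, shown in capitals, while 0.389% of all mESC H3K27ac windows hold 2 or more. The window was chosen for its matches.
Lifr promoter: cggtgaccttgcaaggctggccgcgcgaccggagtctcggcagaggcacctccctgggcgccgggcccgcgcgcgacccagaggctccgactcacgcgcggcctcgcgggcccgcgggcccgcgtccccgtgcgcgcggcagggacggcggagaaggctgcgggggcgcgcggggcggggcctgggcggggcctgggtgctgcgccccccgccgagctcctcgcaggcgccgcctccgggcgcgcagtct
Lifr upstream H3K27ac summit: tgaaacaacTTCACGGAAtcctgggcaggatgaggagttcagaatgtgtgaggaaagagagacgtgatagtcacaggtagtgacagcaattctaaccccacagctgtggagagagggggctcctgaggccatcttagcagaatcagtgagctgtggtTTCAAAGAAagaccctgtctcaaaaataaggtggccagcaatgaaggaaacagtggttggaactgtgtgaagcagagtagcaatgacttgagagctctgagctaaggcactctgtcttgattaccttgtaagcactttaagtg

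At Il6st the Ctr9 peaks of both cell types gathered at the gene end, although the level of the gene differed. There were 10 Ctr9 peaks in mESCs (strongest 5.62) and 14 in NIH3T3 cells (strongest 5.96). Of the 10, 6 overlapped a peak of the other cell type. With the mESC list cut to the size of the NIH3T3 list, 4 of the 10 were left. In the full lists, 7 of 10 and 9 of 14 lay in the last 25% of the gene or past its end. The strongest summit was 182 bps before the gene end in mESCs and 4139 bps before it in NIH3T3 cells. H3K27ac at the start reached 5.32 in mESCs (top 26.5% of the list) and 23.8 in NIH3T3 cells (top 6.04%), and NELFA had a peak of 5.05 with its summit 128 bps after the start.

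The one Ctr9 window of mESCs with 2 matches to TTCNNNGAA at Il6st lies 1841 bps past the gene end, at a peak of 3.88, and is printed for comparison with Socs3 (chr13:112511777-112512076, plus strand, matches in capitals). Of all Ctr9 windows of mESCs, 0.38% hold 2 or more, but this window was chosen for its matches.
Il6st Ctr9 summit past the end: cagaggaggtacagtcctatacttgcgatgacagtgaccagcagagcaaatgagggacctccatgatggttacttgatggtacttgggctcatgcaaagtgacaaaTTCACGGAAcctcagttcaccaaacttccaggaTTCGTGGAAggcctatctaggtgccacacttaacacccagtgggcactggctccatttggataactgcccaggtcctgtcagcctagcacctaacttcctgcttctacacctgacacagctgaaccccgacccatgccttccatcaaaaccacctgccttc

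Jak1 was the gene without Ctr9 in mESCs. Its TPM was 27.2, and 87.8% of the genes with a TPM of at least 10 in mESCs had a Ctr9 peak, but the nearest one lay 73.8 kb from Jak1. NIH3T3 cells had 2 Ctr9 peaks, of 3.13 and 4.57, with summits 787 and 3123 bps after the start. The H3K27ac peak at the start reached 3.83 in mESCs (top 54.1% of the list) and 23.1 in NIH3T3 cells (top 6.66%), and NIH3T3 cells had 4 more inside the gene, of which 1 reached 6.37. Raver2, a gene on the opposite strand that meets the end of Jak1, had a TPM of 3.39 in mESCs and of 0.0927 in NIH3T3 cells.

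Stat3 had Ctr9 at its end and H3K27ac at its start in both cell types. The strongest Ctr9 peak of mESCs (7.75) was 3413 bps wide with its summit 1373 bps past the gene end, and NIH3T3 cells had 2 such peaks there (7.84 and 7.95), with summits 2045 and 4505 bps past the end. Stat5a, which is transcribed toward Stat3 and overlaps its end, had a TPM of 3.85 and of 7.44, so that Ctr9 past the end of Stat3 cannot be assigned to 1 of the 2 genes. Inside the body, NIH3T3 cells had 14 Ctr9 peaks and mESCs 7. With the mESC list cut to the size of the NIH3T3 list, 1 of the 8 mESC Ctr9 peaks at Stat3 was left. H3K27ac near the start reached 6.24 in mESCs (top 16.9% of the list) and 31.9 in NIH3T3 cells (top 1.95%), the strongest H3K27ac peak at any of the 7 genes in each list. NELFA had a peak of 3.91 with its summit 377 bps before the start.

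**Figure D4:**
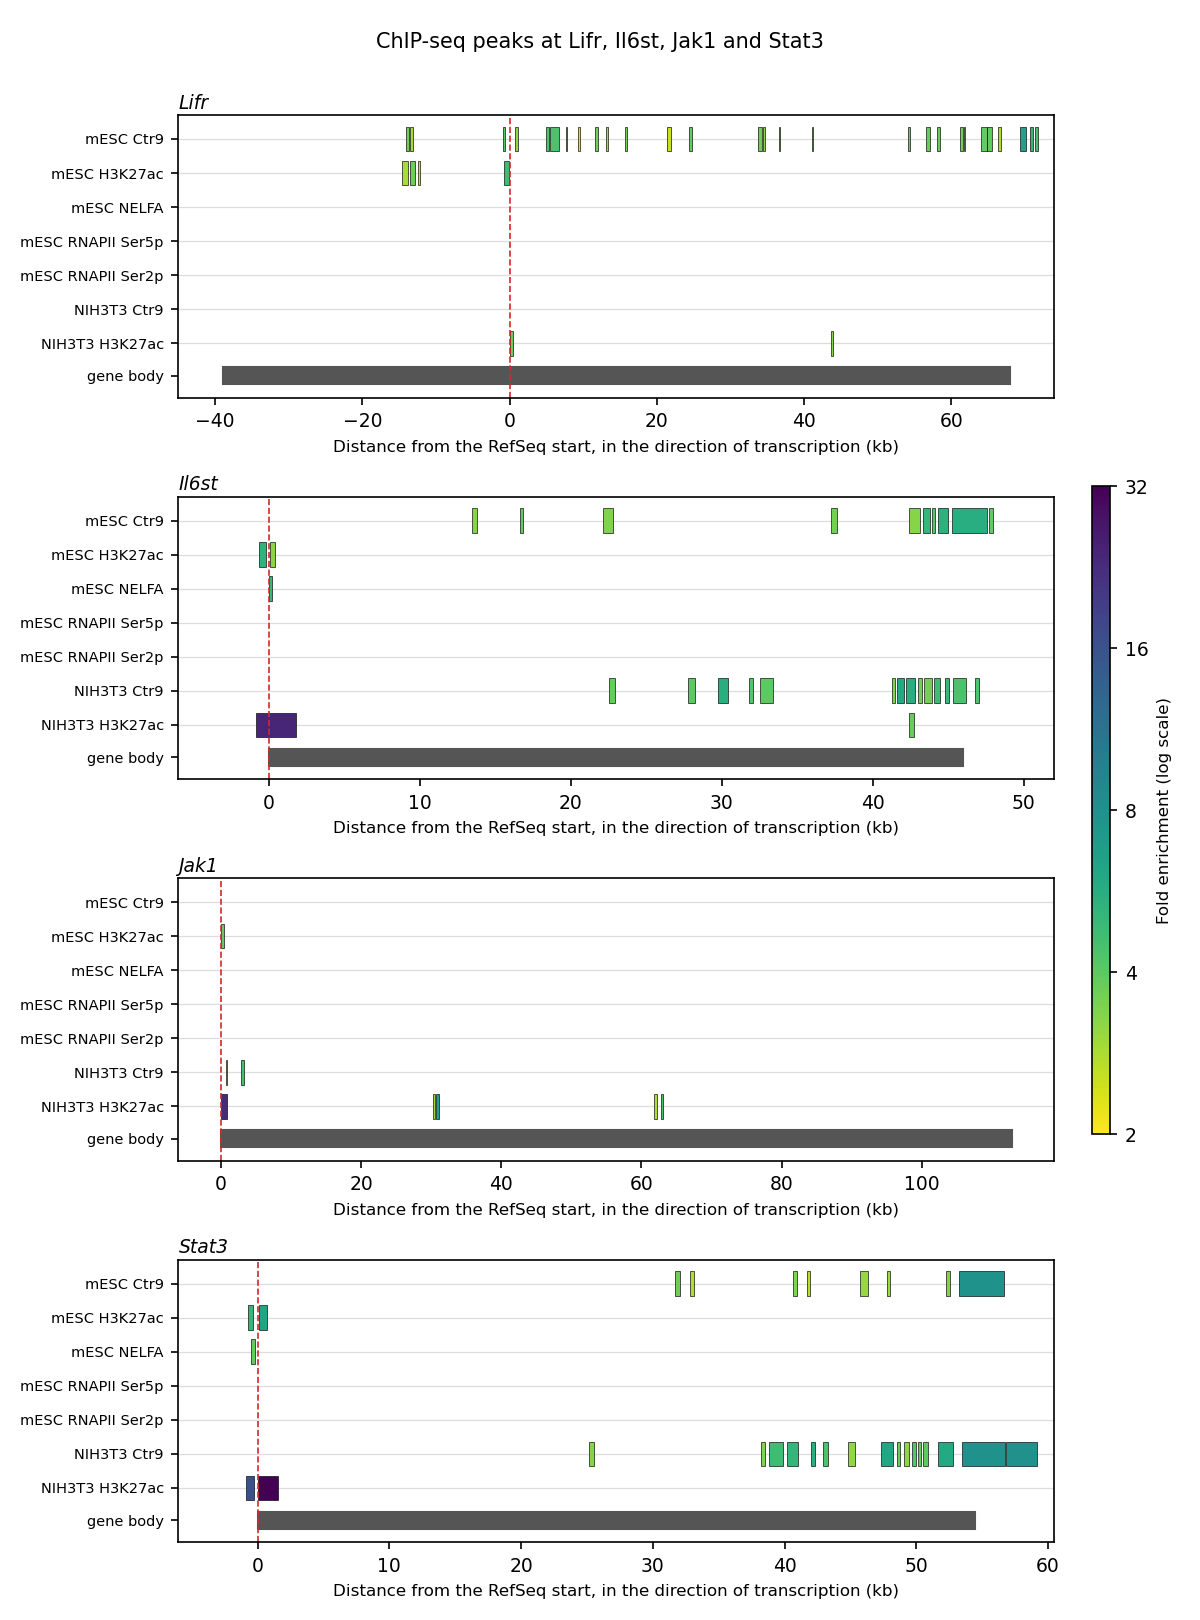
Peaks of the 7 lists at Lifr, Il6st, Jak1 and Stat3, drawn by distance from the RefSeq start (dashed line) in kb in the direction of transcription, with fold enrichment as colour on a log scale and the GENCODE gene body as a grey bar. Lifr carries 28 Ctr9 peaks in mESCs and 0 in NIH3T3 cells, Jak1 0 and 2, and at Il6st and Stat3 the Ctr9 peaks of both cell types gather toward the gene end.

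Over all 7 genes, 12 of the 53 Ctr9 peaks of mESCs overlapped a Ctr9 peak of NIH3T3 cells, and 14 of the 36 of NIH3T3 cells overlapped one of mESCs, against 17.8% and 39.1% of all peaks in these lists. For H3K27ac the numbers were 7 of 13 and 6 of 25, against 47.1% and 24.8% of all peaks. In the same cell type, 4 of the 53 Ctr9 peaks of mESCs and 5 of the 36 of NIH3T3 cells overlapped H3K27ac, against 9.3% and 21.7% of all Ctr9 peaks. Of the Ctr9 summits inside the genes of at least 10 kb (Lif, Lifr, Il6st, Jak1 and Stat3), 19 of 42 in mESCs and 18 of 29 in NIH3T3 cells lay in the last 25% of the gene. Over all protein-coding genes of this length the shares were 39.8% and 38.9%. A Ctr9 peak in both cell types was found at Il6st, Stat3, Socs3 and Pim1, where 23.6% of all genes had one. H3K27ac peaks in both cell types were found at all of the 7 genes other than Socs3, against 40% of all genes. Both shares cover all protein-coding genes, expressed or not, and none was computed for genes of like expression. Among genes with a TPM of at least 10, single lists had H3K27ac peaks at 87.3% (mESCs) and 97.3% (NIH3T3 cells). For Ctr9 these were 87.8% and 57.9%, so the counts are not read as an excess at the 7 genes. With the NIH3T3 H3K27ac list cut to the size of the mESC list, Lifr had no H3K27ac peak in NIH3T3 cells, and with −log10 q of at least 5 Socs3 had no Ctr9 peak there.

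The other genes of the pathway put these levels in context. They were 48 further ligands, receptors, kinases, STATs, inhibitors and target genes, of which 46 had a TPM of at least 1 in either library. Of these, 14 were called higher in mESCs and 16 lower, against 23.8% and 20% of all genes. Together with the 7 genes, none of the 6 ligands tested was higher in mESCs and 4 were lower, with a median log2 difference of −2.14, and of the 6 receptors 2 were higher and 4 lower. Among the 15 target genes tested the balance was the other way, with 8 higher and 3 lower and a median of 1.63. That list holds transcription factors of pluripotent cells, such as Klf5 and Tfcp2l1, and the lists were chosen with earlier results of these data known. Its balance is therefore no test of LIF targets, and the part of the choice of genes in it was not tested.

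Of the named ligands and receptors that work through Il6st, Il6, Clcf1 and Osmr were higher in NIH3T3 cells and Cntfr was higher in mESCs. The cytokine Il6 was listed at 0 in mESCs and had a TPM of 15.3 in NIH3T3 cells, and Clcf1, another ligand of the family, had 0.276 and 24.6. Osmr, the receptor chain for oncostatin M that pairs with Il6st, had a TPM of 0.211 in mESCs and of 53.3 in NIH3T3 cells, the opposite of Lifr. Cntfr, which binds the ciliary neurotrophic factor and joins Lifr and Il6st, had 10.2 and 0.191. Tyk2, a kinase related to Jak1, had 15.3 in mESCs and 2.95 in NIH3T3 cells, so both kinases differed in opposite directions. Socs5, an inhibitor related to Socs3, had 3.58 and 98.7.

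Several target genes of LIF and Stat3 in mESCs were among those most different. Klf5 had a TPM of 310.2 in mESCs and of 14.2 in NIH3T3 cells, and Tfcp2l1 had 112 and 0.114. Both are transcription factors of naive pluripotency. Gbx2 and Sall4, also transcription factors, had 17.1 and 75.3 in mESCs and were listed at 0 in NIH3T3 cells. Pim3, a kinase related to Pim1, went the same way as Pim1, with 92.8 and 14.7. Cebpd, a transcription factor of inflammatory responses, went the other way, with 0.863 and 28.03.

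**Figure D5:**
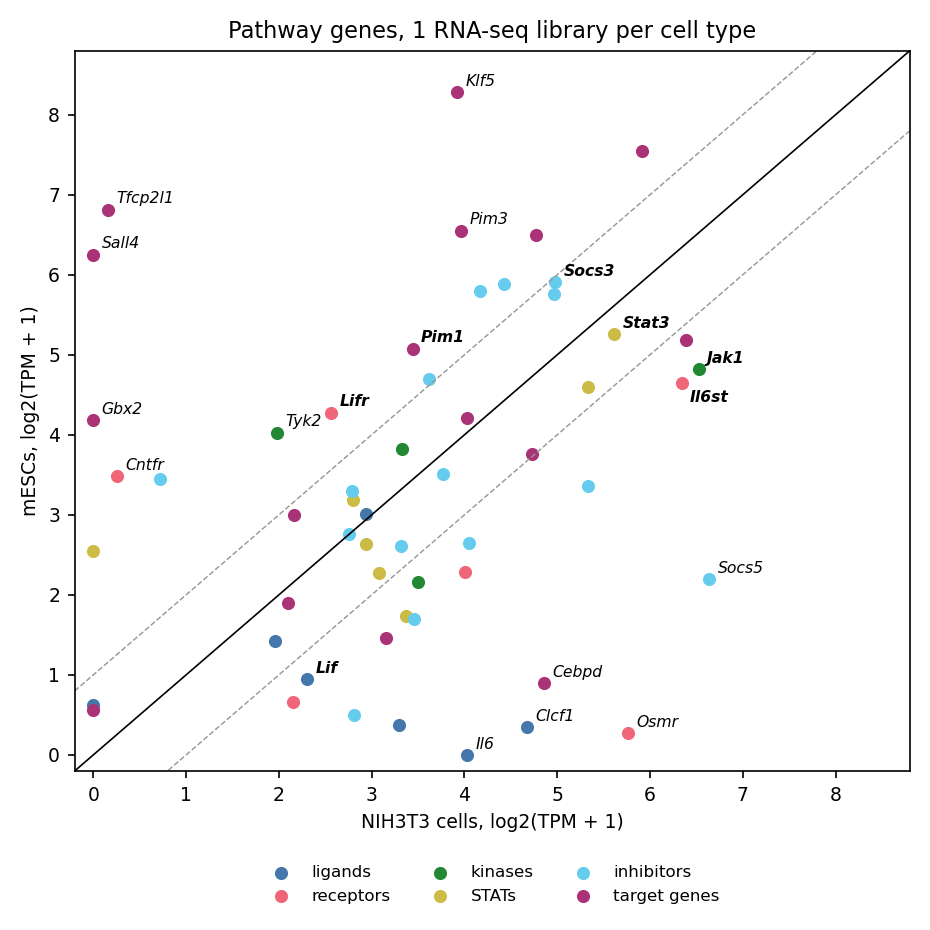
Log2(TPM + 1) of the 55 pathway genes in NIH3T3 cells (x axis) and mESCs (y axis), coloured by role, with equal levels on the solid line and 2-fold differences on the dashed lines. The 7 genes are in bold type, and other names mark genes with at least a 4-fold difference and a TPM of at least 10 in 1 library, among them Osmr in the lower right and Tfcp2l1 and Sall4 in the upper left.

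The genes whose 9 values (both levels and the strongest fold enrichment in the 7 lists) were most like each of the 7 were found by Euclidean distance on log2 scales over all protein-coding genes. Jak1 had the closest neighbour, Sdcbp, at a distance of 0.218, which likewise had H3K27ac in both cell types and Ctr9 in NIH3T3 cells only, followed by Myof. Socs3 was the least matched, with Edc4 at 1.96 and Pmpca at 2.197. For Lifr the nearest were Dcaf4 and Gm14326, for Pim1 Rest and Mindy1, for Stat3 Naa15 and Psmd5, for Il6st Sar1a and Vmp1, and for Lif Ern1 and Fbxo48.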

How the data were processed

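ChIP-seq and RNA-seq of mESCs and NIH3T3 cells were analysed from 9 processed files of 12 samples. The 3 input libraries were not used here. For each ChIP-seq library, the authors used Bowtie2 2.3.5.1 for alignment to mm10, an ENCODE blacklist as filter, and MACS2 2.2.6 for peak calling, where peaks passed a q-value of 0.01. Fold enrichment in the deposited lists is a ratio taken at the summit. The lists also hold −log10 p and −log10 q as deposited by the authors, and a deposited score that was not used. For RNA-seq, kallisto 0.46.1 was run by the authors with the GENCODE M19 transcripts, and its estimated counts and TPM were deposited for each transcript. Whether that run used strand is not given in the sources used here, so reads of overlapping opposite genes may be shared. Peak lists give no read counts, so ChIP-seq depth is unknown.

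Peaks were joined to GENCODE M21 genes, and RefSeq promoters and sequences came from GRCm38.p6. With 1 library per group no test was made. Levels were compared on log2(TPM + 1), and intervals are 95% exact Clopper-Pearson or Poisson intervals on estimated counts. Python 3.11.15, pandas 2.3.3, NumPy 2.4.6, SciPy 1.17.1 and Matplotlib 3.10.9 were used, and 8 of 8 checks on simulated data passed. The 7 genes, the pathway lists and the markers were chosen with earlier results of these data known. Named beside the 7 genes were pathway genes with at least a 4-fold difference and a TPM of at least 10 in 1 library, the 2 genes most like each of the 7, and neighbours that overlap them, these last chosen after their values were seen. Other settings were tried for gene level, pseudocount, filter on low values, q-value, window, overlap and list size, and the transcript with most counts was added after the data were seen.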

Additional observations from a re-analysis of the deposited data

How the results depend on the processing

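Of 62 values that answer a comparison under other settings, 58 stayed on their side of the call or within 1.5 times the value given. With −log10 q of at least 5, the Ctr9 peaks over the 7 genes fell to 35 in mESCs and 22 in NIH3T3 cells, and with equal numbers of peaks per cell type to 22 Ctr9 peaks in mESCs and 12 H3K27ac peaks in NIH3T3 cells. These settings keep fewer peaks by construction. They also ended the Ctr9 call of Socs3 in NIH3T3 cells (4 genes left in place of 5) and the H3K27ac call of Lifr in NIH3T3 cells (6 in place of 7). Of 21 values of single genes, 20 kept their direction and their side of the 2-fold call, with log2 differences that moved by as much as from −1.36 to −1.98 (Lif, pseudocount 0.1), and the log2 difference of Socs3 became 1.05 with summed transcripts, which made 3 genes higher in mESCs and 3 lower. A pseudocount of 0.1, no filter on low values, a 1-kb window, the summit rule and the transcript with most counts (added after the data were seen) changed no count of the 7 genes called or holding a peak. With the last of these, the pathway genes called lower in mESCs went from 19 to 17. No paired analysis was possible because each group has 1 library, and for the same reason no library could be left out. A difference between cell types cannot be told apart from one between libraries.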

Other observations

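Peaks at the other 48 pathway genes were found for Ctr9 at 33 in mESCs and 24 in NIH3T3 cells. The shares were 45.6% and 26.9% of all genes, and 87.8% and 57.9% of those with a TPM of at least 10. H3K27ac peaks were found at 30 and 41 (44.6% and 56% of all genes, 87.3% and 97.3% of those with a TPM of at least 10). In mESCs, NELFA had peaks at 13 of them (10.9% and 25.6%), RNAPII Ser5p at 15 (13.4% and 31.4%) and RNAPII Ser2p at 8 (7.54% and 17.2%). The part of expression level in these counts was not tested. Osmr mirrored Lifr in Ctr9, with 29 Ctr9 peaks in NIH3T3 cells (strongest 8.74) and 0 in mESCs. It had 6 and 0 H3K27ac peaks, whereas Lifr had H3K27ac peaks in both cell types. Those of Lifr in NIH3T3 cells were weak (3.82 and 3.36), and 0 were left with that list cut to the size of the mESC list. Tfcp2l1 had 43 Ctr9 peaks in mESCs and 0 in NIH3T3 cells, and Tyk2 had 21 and 2. Socs5, at a higher level in NIH3T3 cells, had 9 Ctr9 peaks there and 0 in mESCs.

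Pim3, like Pim1, was higher in mESCs and held a strong Ctr9 peak there (23.1). Unlike Pim1, Pim3 had no Ctr9 peak in NIH3T3 cells. Its strongest H3K27ac peak reached 2.68 in mESCs and 26.6 in NIH3T3 cells. Klf5 had 13 RNAPII Ser5p peaks in mESCs with a strongest value of 5.47, and a Ctr9 peak of 18.5, against 1 Ctr9 peak of 3.48 in NIH3T3 cells. Gbx2 had NELFA (6.64) and Ser5p (7.98) peaks and no H3K27ac peak in mESCs, as Socs3 did. Il6, listed at 0 TPM in mESCs, had peaks in 1 list, NIH3T3 H3K27ac, with 3 peaks and a strongest value of 15.98.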
